A study of Rattus norvegicus with 10 samples.

Results

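In neonatal rat cardiomyocytes, 33 named genes reached at least 5 TPM in both libraries of cells given YAP5SA, an activated YAP, and lay under 1 TPM in both libraries of cells given YAP5SA-S94A, the same form with disrupted TEAD binding. TPM is a transcript level per gene length, and its sum over all genes is equal in every library. The 33 genes were drawn from 39784 gene names after TPM was summed over entries of the same name, and they make up 0.328% of the 10049 names at 5 TPM or more in both YAP5SA libraries. A further 13 names met both thresholds and were left out by name, 7 of them beginning with LOC, 2 with RGD and 4 with Myh. The values that chose the genes are the levels given here, so those levels are a description and carry no test.

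The study expressed altered forms of YAP in cultured heart muscle cells of wild type newborn rats. Its RNA-seq samples were 2 libraries of cells treated with Ad-Xon-YAP5SA and 2 libraries of cells treated with Ad-Xon-YAP5SA-S94A, and nothing else in the labels separates the groups. The labels name biological replicates without saying whether they were separate isolations, so p-values measure only the spread between these libraries, which may be technical. Both groups carried the activated YAP5SA backbone, no RNA-seq library of GFP or uninfected cells was analysed here, and neither were the 6 CUT&RUN samples. A level that is higher with YAP5SA therefore does not show what an uninfected cell would express.

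YAP is a coactivator without a DNA-binding domain of its own, and the kinases of the Hippo pathway hold it in the cytoplasm by phosphorylating serines. In the nucleus it binds TEAD transcription factors, which recognise a short DNA core, and activates genes of growth, adhesion and cytoskeleton. YAP5SA has the inhibitory serines replaced by alanine, and the added S94A change removes the serine that contacts TEAD. In the newborn heart this pathway is known for its control of cardiomyocyte proliferation.

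The 4 libraries held 5.10 and 4.02 gigabases of aligned sequence with YAP5SA and 5.02 and 4.97 gigabases with YAP5SA-S94A, as derived from coverage and FPKM. At these depths 1 TPM corresponded to a coverage of at most 2.04 and 1.52 reads per base with YAP5SA and 2.00 and 1.96 with YAP5SA-S94A. Of 18 genes that nearly all cells use, 0 were listed at 0, and the lowest of their values was 9.09 TPM. Cardiomyocyte markers were abundant in all libraries: Tnnt2, cardiac troponin T, had 5811 and 6323 TPM with YAP5SA, against 7996 and 8190 TPM with YAP5SA-S94A. The cultures also held RNA of other cell types, with Col1a1, the fibroblast collagen chain, at 3438 and 2462 TPM with YAP5SA, against 2378 and 2135 TPM with YAP5SA-S94A. In bulk RNA, fewer cells of a type and less RNA per cell cannot be told apart.

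Summed over the 33 genes, TPM was 503 and 485 with YAP5SA, or 0.0503% and 0.0485% of each library, against 11.3 and 12.1 with YAP5SA-S94A, or 0.00113% and 0.00121%. Most of the genes reached modest levels. In the YAP5SA libraries 8 of the 33 averaged at least 20 TPM, 10 averaged 10 to 20 TPM and 15 averaged less than 10 TPM, with a median of 11.6 TPM. Over the 12897 names at 1 TPM or more in both YAP5SA libraries the median was 20.1 TPM, and 8 of the 33 genes lay above it. Near silence took 3 forms with YAP5SA-S94A: 2 genes were listed at 0 in both libraries, 8 were listed at 0 in 1 library, and 23 had a value above 0 in both. The YAP5SA libraries gave like levels for most genes, with a median ratio of the higher to the lower library of 1.22, and 5 genes had a ratio above 1.5. The largest such ratio was 2.05, for Crb3.

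**Figure D1:**
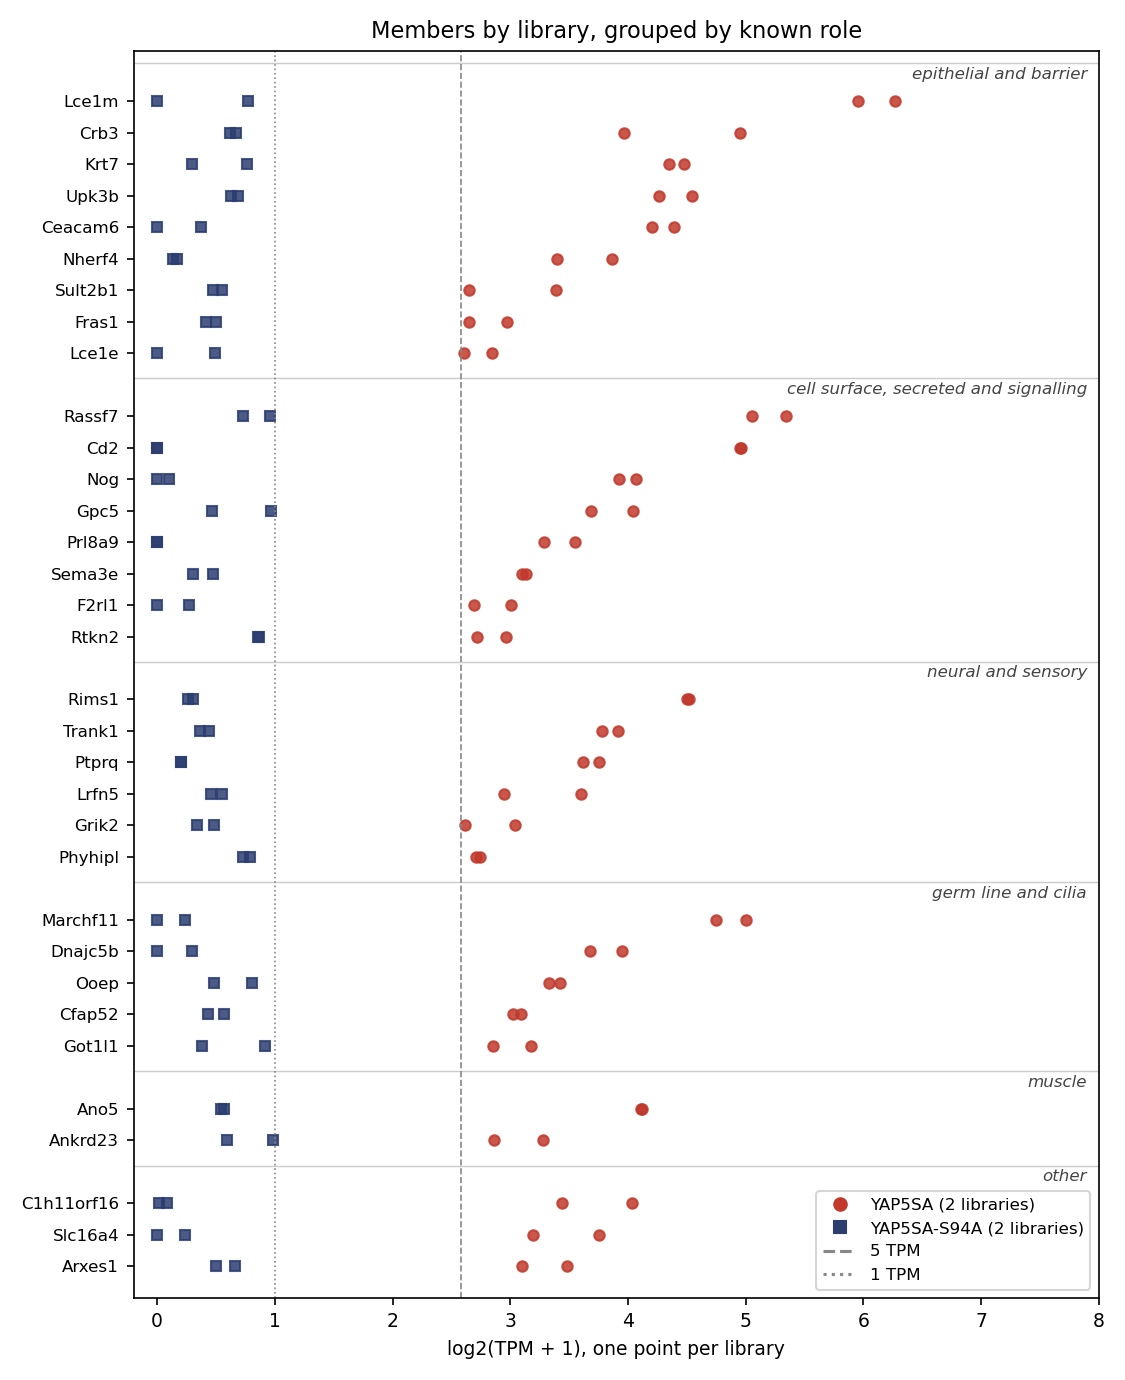
Levels of the 33 genes in each library on the log2(TPM + 1) scale, grouped by known role, with red circles for the 2 YAP5SA libraries and blue squares for the 2 YAP5SA-S94A libraries. The dotted and dashed lines mark the thresholds of 1 and 5 TPM that chose the genes, so the empty space between them is the rule itself. Lce1m reaches the highest level, 76.0 TPM.

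At the thresholds the boundary ran through a continuous range of levels. Lce1e, Grik2 and Fras1 were the lowest genes inside it with YAP5SA, with lower values of 5.07, 5.12 and 5.28 TPM. Just outside lay Ces2a at 4.95 and 4.98 TPM, Hal at 4.90 and 7.68 TPM and Gjb2 at 4.68 and 6.75 TPM. On the YAP5SA-S94A side Ankrd23, Gpc5 and Rassf7 came closest to the limit, with higher values of 0.981, 0.955 and 0.941 TPM, and Wscd2 and Mns1 were among the names just outside, at 1.04 and 1.12 TPM. The same rule with the YAP forms exchanged gave 10 genes, near silent with YAP5SA and at 5 TPM or more with YAP5SA-S94A, and 20 without YAP5SA replicate 1. The 10 were Asb14, Asb16, Asb18, Dusp13a, Dusp13b, Gabrb2, Piwil2, Ptprr, Sctr and Tbc1d10c.

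Promoter letters were read for the genes because TEAD binding is what separates the YAP forms. RefSeq promoter windows of the rat build GRCr8, running from 250 bases before a start to 50 after it, matched 27 of the 33 genes with 30 windows. The genes F2rl1, Ptprq, Krt7, Got1l1, Dnajc5b and Cfap52 had no matching entry. The TEAD core GGAATG, searched on both strands, lay in 5 of the 30 windows, or 16.7%, against 14.2% of all 33469 windows and 11.6% of the 12005 windows of tested genes. The 5 windows belong to Rassf7, Prl8a9, Lce1e, Ankrd23 and Arxes1, and their 250 upstream bases follow from 5′ to 3′ on the strand of the gene, with the core in capitals, as GGAATG or its reverse complement.
Rassf7: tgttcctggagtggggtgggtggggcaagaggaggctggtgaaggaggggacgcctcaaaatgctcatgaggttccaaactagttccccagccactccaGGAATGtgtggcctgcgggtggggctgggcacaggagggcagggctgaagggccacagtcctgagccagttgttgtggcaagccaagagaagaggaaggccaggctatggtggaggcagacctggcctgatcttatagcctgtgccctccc
Prl8a9: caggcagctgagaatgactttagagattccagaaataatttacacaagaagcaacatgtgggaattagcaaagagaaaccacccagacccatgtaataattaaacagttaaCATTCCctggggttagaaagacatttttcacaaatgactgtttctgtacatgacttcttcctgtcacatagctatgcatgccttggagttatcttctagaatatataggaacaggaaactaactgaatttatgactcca
Lce1e: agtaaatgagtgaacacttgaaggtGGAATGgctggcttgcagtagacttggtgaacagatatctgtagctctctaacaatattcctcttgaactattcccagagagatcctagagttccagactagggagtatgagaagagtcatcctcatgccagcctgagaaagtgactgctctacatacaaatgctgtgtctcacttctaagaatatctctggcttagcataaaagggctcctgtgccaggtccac
Ankrd23: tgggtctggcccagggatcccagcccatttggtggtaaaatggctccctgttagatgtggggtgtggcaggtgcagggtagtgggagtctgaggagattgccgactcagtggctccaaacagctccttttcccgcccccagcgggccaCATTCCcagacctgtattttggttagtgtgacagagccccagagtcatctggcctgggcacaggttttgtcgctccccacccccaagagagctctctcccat
Arxes1: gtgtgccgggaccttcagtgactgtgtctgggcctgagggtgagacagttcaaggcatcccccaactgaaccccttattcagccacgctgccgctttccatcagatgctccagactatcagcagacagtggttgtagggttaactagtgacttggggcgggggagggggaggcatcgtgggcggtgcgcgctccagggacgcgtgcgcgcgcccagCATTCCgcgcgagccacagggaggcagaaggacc
In GRCr8 these stretches are chr1:205751179-205751428, plus strand, for Rassf7; chr17:37503200-37503449, plus strand, for Prl8a9; chr2:181159043-181159292, minus strand, for Lce1e; chr9:46274511-46274760, minus strand, for Ankrd23; and chrX:103741907-103742156, plus strand, for Arxes1. The core starts 151, 139, 225, 102 and 34 bases before the start in that order. At a level of 10 TPM or more in both YAP5SA libraries, 1 of 14 windows, or 7.14%, held the core. These windows belong to 12 genes and include 3 nearly identical ones of Ano5. A single match is too few to rank this share against that of promoters at large. A match is a run of letters and not a measured binding site, and binding sites outside these windows were not examined.

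The other motifs searched lay in fewer windows than the TEAD core. The AP-1 motif TGANTCA, which reads the same on both strands, lay in 1 of 30 windows, that of Ooep, against 7.33% of all windows. A CArG box, the element bound by serum response factor, lay in 1 window, that of Upk3b, against 1.64% of all windows. The letters TATAAA lay in 2 windows, of Lce1m and Phyhipl, against 14.2% of all windows. In Lce1m, the gene with the highest level of the 33, they start 30 bases before the start, and the upstream bases (chr2:181334301-181334550, minus strand) are shown with these letters in capitals.
Lce1m: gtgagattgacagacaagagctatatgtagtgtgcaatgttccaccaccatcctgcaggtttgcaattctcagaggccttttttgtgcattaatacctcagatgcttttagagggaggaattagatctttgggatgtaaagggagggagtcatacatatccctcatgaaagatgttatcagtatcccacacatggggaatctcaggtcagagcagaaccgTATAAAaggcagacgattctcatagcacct
CpG content, a feature of the promoters of widely used genes, was low in many of the windows. The median window of the 33 genes held 6 CpG dinucleotides, against 20 for tested genes and 7 for all windows. Windows with 4 or fewer CpG made up 15 of 30, or 50%, against 9.97% for tested genes and 38.0% for all windows; 3 of the 15 are nearly identical windows of Ano5. At the other end 9 of the 30 windows, or 30%, held 20 or more, against 52.1% for tested genes and 24.2% for all windows, among them those of Marchf11, Nog and Rims1 with 30, 34 and 30. These shares were not tested.

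**Figure D2:**
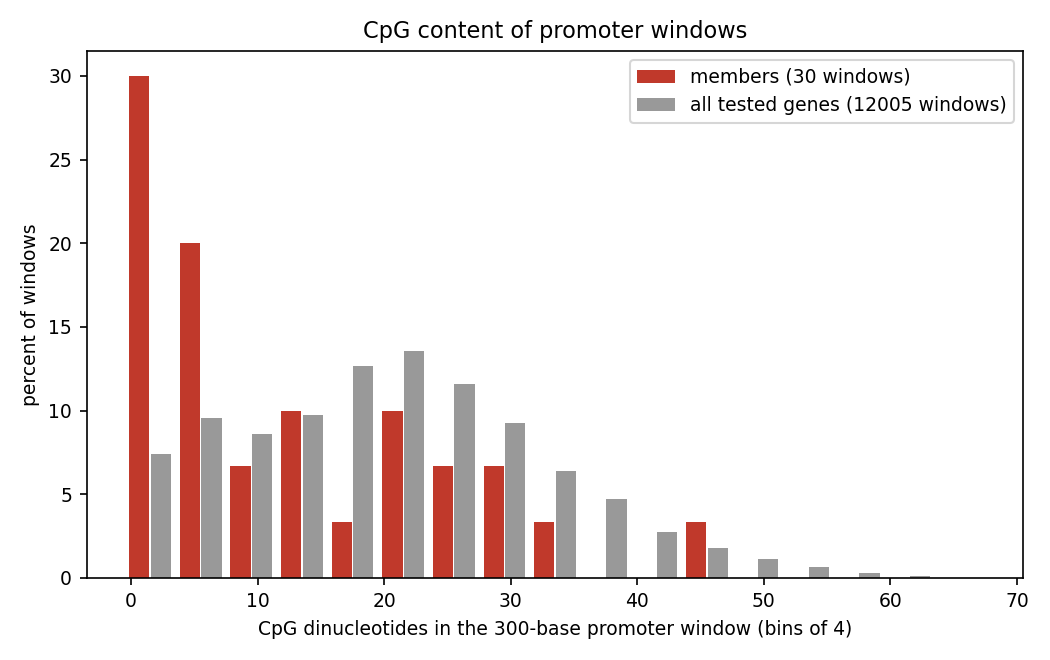
CpG dinucleotides per 300-base promoter window, as the percent of windows in each bin of 4, for the windows of the near-silent genes (red, 30 windows) and of all tested genes (grey, 12005 windows). Members fill the lowest bins more than tested genes do, with medians of 6 and 20 CpG. The median of all promoter windows, which are not drawn, is 7. The red bars count 3 nearly identical windows of Ano5.

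Epithelial and barrier genes formed the largest role group, with 9 of the 33. Roles were assigned from textbook knowledge after the genes were known. Lce1m and Lce1e encode late cornified envelope proteins, which harden the outer layer of the skin. Lce1m had 61.1 and 76.0 TPM in the YAP5SA libraries, a mean of 68.5 ± 10.6 (SD, n = 2), against 0 and 0.711 TPM in the YAP5SA-S94A libraries. Lce1e had 6.17 and 5.07 TPM with YAP5SA, against 0 and 0.403 TPM with YAP5SA-S94A. Lce1m thus exceeded every other gene of the group in both YAP5SA libraries, and 82.0% of expressed names stood below its mean there. In the deposited tables, on build rn7, Lce1m spans chr2:178637495-178638697 on the minus strand and Lce1e spans chr2:178462100-178463433 on the minus strand. They lie 174062 bases apart and are the only pair of the 33 within 1000000 bases of each other. The 5 other genes with the stem Lce were under 1 TPM in all 4 libraries, and reads of close copies of this family cannot be divided with certainty.

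Crb3, Krt7, Upk3b and Ceacam6 belong to simple epithelia. Crb3, a transmembrane organiser of the apical surface, had 30.0 and 14.7 TPM with YAP5SA, against 0.588 and 0.533 TPM with YAP5SA-S94A. Krt7, a keratin of simple epithelia, had 21.3 and 19.4 TPM with YAP5SA, against 0.698 and 0.229 TPM with YAP5SA-S94A. Upk3b, a uroplakin found in bladder lining and in mesothelium, had 22.4 and 18.2 TPM with YAP5SA, against 0.611 and 0.544 TPM with YAP5SA-S94A. The rule fixes the gap between the groups, and Crb3 was the least even of these between its YAP5SA libraries. Ceacam6, a cell adhesion molecule of the carcinoembryonic antigen family, had 17.4 and 20.0 TPM with YAP5SA, against 0.292 and 0 TPM with YAP5SA-S94A.

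Lower in the group stood a scaffold, an enzyme and a matrix protein. Nherf4, a PDZ scaffold of transporters in intestine and kidney, had 13.6 and 9.54 TPM with YAP5SA, against 0.125 and 0.0987 TPM with YAP5SA-S94A. Sult2b1, which attaches sulfate to cholesterol in skin, had 9.47 and 5.29 TPM with YAP5SA, against 0.390 and 0.467 TPM with YAP5SA-S94A. Fras1, a basement membrane protein whose loss causes Fraser syndrome in humans, had 6.84 and 5.28 TPM with YAP5SA, against 0.335 and 0.418 TPM with YAP5SA-S94A. All 3 were higher in the first YAP5SA library than in the second. Nherf4 overlaps Nlrx1 on the same strand, which had 13.2 and 11.2 TPM with YAP5SA and 12.0 and 12.8 TPM with YAP5SA-S94A.

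Most general epithelial markers were near 0 beside them. Of 18 epithelial and keratinocyte markers in the tables, 15 were under 1 TPM in all 4 libraries. Krt5 and Grhl2, a basal keratin and an epithelial transcription factor, were listed at 0 in all 4, and Cdh1, E-cadherin, had 0 and 0.286 TPM with YAP5SA and 0.154 and 0.411 TPM with YAP5SA-S94A. The list without Krt7, which the rule chose, summed to 4.39 and 4.79 TPM with YAP5SA and 5.74 and 6.31 TPM with YAP5SA-S94A.

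Some epicardial and mesothelial markers were higher with YAP5SA. Genes other than the 33 were tested on log2(TPM + 1) with limma over 13420 names with a mean of at least 1 TPM, and called under a Benjamini-Hochberg adjusted p of 0.05; in all 2337 names, or 17.4%, were called higher with YAP5SA and 2083, or 15.5%, lower. Without YAP5SA-S94A replicate 1 or 2 the calls of lower names numbered 1299 and 1310. A fold change on this scale understates the change of low genes. A name averaging under 1 TPM in 1 group could enter the test only through its level in the other group. The 33 chosen genes passed in 33 of 33 cases, which the rule fixes and from which nothing is read. Beside Upk3b, 4 of 9 tested epicardial and mesothelial markers were higher by limma, 0 were called lower (1 at an unadjusted p under 0.05, Upk1b, and 1 called without YAP5SA replicate 1), and the list without Upk3b summed to 251 and 229 TPM with YAP5SA, against 81.1 and 79.7 TPM with YAP5SA-S94A. Krt18, the keratin that pairs with Krt8 in simple epithelia, had 140 and 127 TPM with YAP5SA, against 6.44 and 3.60 TPM with YAP5SA-S94A, a log2 fold change of 4.52 ± 0.22 (SE, limma adjusted p = 2.87e-05). Krt19, a further simple keratin, had 41.5 and 33.0 TPM with YAP5SA, against 7.54 and 7.15 TPM with YAP5SA-S94A (log2 fold change 2.19 ± 0.16, limma adjusted p = 0.000101). Krt18 and Krt19 made up most of the list's sum with YAP5SA and a small part of it with YAP5SA-S94A. The gap between the sums is theirs and does not describe the list as a whole. Krt8 itself was not called, with 2.45 and 2.99 TPM with YAP5SA and 2.41 and 1.61 TPM with YAP5SA-S94A (limma adjusted p = 0.371). Wt1, the defining epicardial transcription factor, was not called either (limma adjusted p = 0.515) and had 2.63 and 2.27 TPM with YAP5SA and 3.10 and 2.83 TPM with YAP5SA-S94A. The part of such cells in the levels of Upk3b and Krt7 was not tested.

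Cell surface, secreted and signalling genes numbered 8. Rassf7, which carries a Ras-association domain, was the highest of these and had 39.7 and 32.1 TPM with YAP5SA, a mean of 35.9 ± 5.33 (SD, n = 2), against 0.941 and 0.655 TPM with YAP5SA-S94A. Its promoter is among those printed above with a TEAD core. Cd2, an adhesion receptor of T and NK cells that binds Cd48 in rodents, had 30.0 and 30.2 TPM with YAP5SA, against values listed at 0 and 0 with YAP5SA-S94A. The SD of Cd2 over the YAP5SA libraries, 0.0819 TPM, was the smallest of the 33. On rn7, Rassf7 spans chr1:196319600-196323787 on the plus strand and Cd2 spans chr2:188710895-188724044 on the minus strand.

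Most lymphocyte markers were at or near 0 beside it. Of 21 T and NK markers, 14 were under 1 TPM in all 4 libraries and 9 were listed at 0 in all 4, namely Cd3d, Cd3e, Cd247, Cd7, Zap70, Klrb1, Nkg7, Gzmb and Prf1. Cd3g, too low to be tested, had 1.40 and 1.39 TPM with YAP5SA, against 0 and 0.291 TPM with YAP5SA-S94A. Of the 6 tested, 1 was called higher and 1 lower, against 17.4% and 15.5% of all tested names, and these counts lie near those shares. Cd28, a costimulatory receptor of T cells, had 9.87 and 8.93 TPM with YAP5SA, against 2.07 and 2.18 TPM with YAP5SA-S94A (log2 fold change 1.73 ± 0.19, limma adjusted p = 0.000626). Cd4, which macrophages also express in rats, had 5.64 and 5.19 TPM with YAP5SA, against 8.30 and 9.73 TPM with YAP5SA-S94A (limma adjusted p = 0.0303), a call that was lost without YAP5SA replicate 2 (limma adjusted p = 0.0616) and without YAP5SA-S94A replicate 1 or 2 (limma adjusted p = 0.0898 and 0.265). Cd48 was present throughout, at 37.0 and 41.9 TPM with YAP5SA and 35.4 and 35.5 TPM with YAP5SA-S94A. The summed list came to 78.8 and 87.5 TPM with YAP5SA and 78.2 and 84.8 TPM with YAP5SA-S94A. All 9 B lymphocyte markers in the tables were under 1 TPM in every library.

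**Figure D3:**
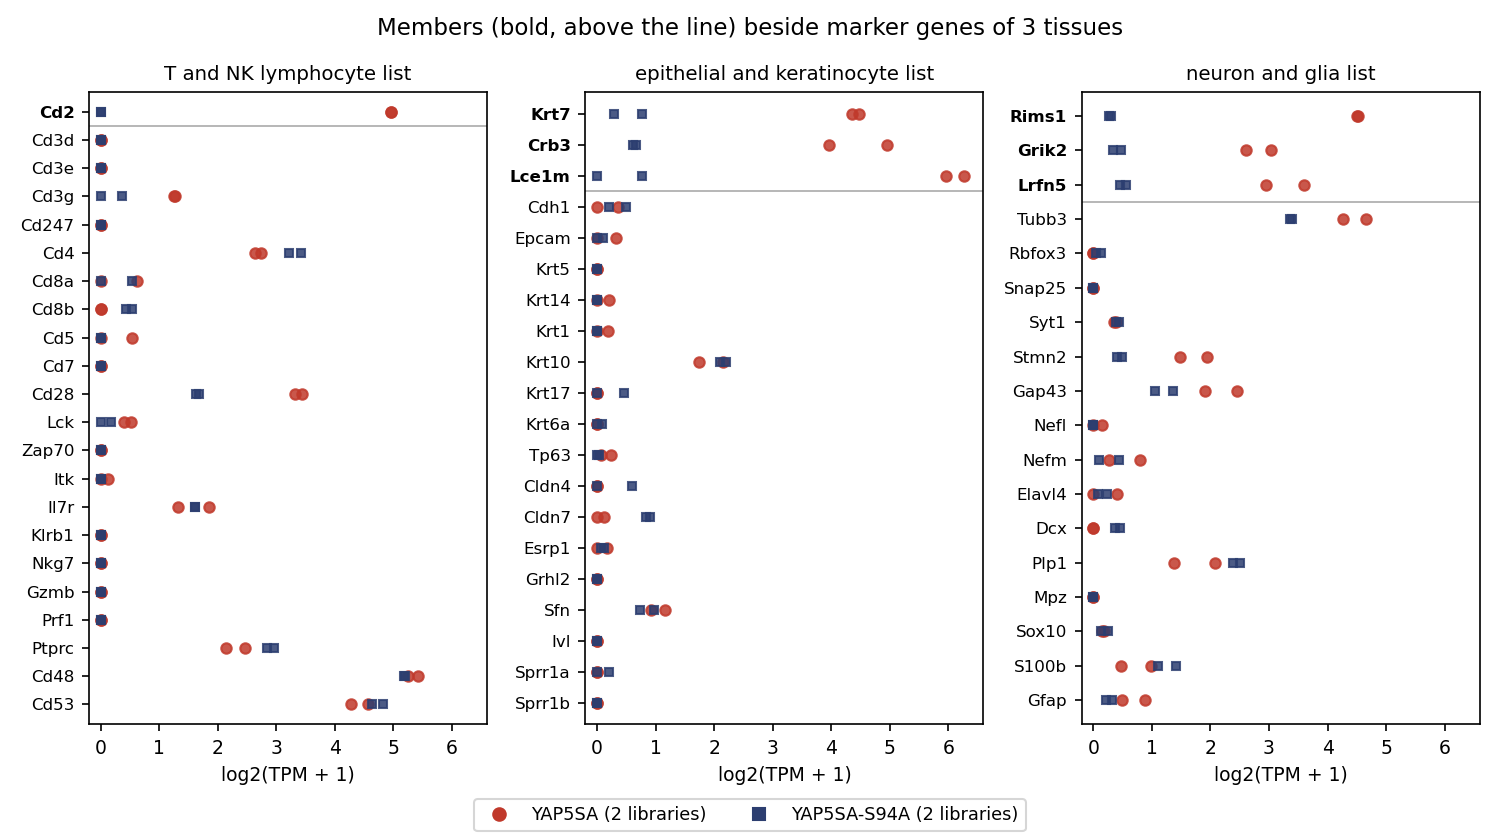
Levels on the log2(TPM + 1) scale of members (bold, above the line) and of marker genes of T and NK lymphocytes, of epithelium and keratinocytes, and of neurons and glia, with red circles for YAP5SA libraries and blue squares for YAP5SA-S94A libraries. Cd2 stands at 30.0 and 30.2 TPM in YAP5SA libraries while Cd3d, Cd3e and Zap70 are listed at 0 in all 4 libraries. Cd3g has 1.40 and 1.39 TPM in YAP5SA libraries and 0 and 0.291 TPM in YAP5SA-S94A libraries.

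Secreted factors and their partners came next. Nog, noggin, the extracellular antagonist of bone morphogenetic proteins, had 15.8 and 14.2 TPM with YAP5SA, against 0.0719 and 0 TPM with YAP5SA-S94A. Gpc5, a glypican that carries heparan sulfate at the cell surface, had 11.9 and 15.5 TPM with YAP5SA, against 0.379 and 0.955 TPM with YAP5SA-S94A. Prl8a9, a placental hormone of the rodent prolactin family, had 8.76 and 10.7 TPM with YAP5SA, against values listed at 0 and 0 with YAP5SA-S94A. All 25 relatives with the stem Prl were under 1 TPM in every library. Nog overlaps LOC102547753 on the opposite strand, at 2.80 and 2.65 TPM with YAP5SA and 0 and 0 TPM with YAP5SA-S94A. Whether the authors' quantification used the strand is not given in the sources used here, so these loci cannot be told apart with certainty.

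Sema3e, a secreted semaphorin that signals through plexin D1, had 7.80 and 7.56 TPM with YAP5SA, against 0.237 and 0.393 TPM with YAP5SA-S94A. F2rl1, the protease-activated receptor of trypsin-like enzymes, had 7.03 and 5.46 TPM with YAP5SA, against 0 and 0.203 TPM with YAP5SA-S94A. Rtkn2 had 5.58 and 6.82 TPM with YAP5SA, against 0.818 and 0.808 TPM with YAP5SA-S94A. Rtkn2 was thus among the genes least near silence.

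Neural and sensory genes numbered 6. Rims1, a scaffold of the presynaptic active zone, had 21.7 and 21.9 TPM with YAP5SA, against 0.238 and 0.199 TPM with YAP5SA-S94A. Ptprq, a phosphatase of hair cell stereocilia in the inner ear, had 11.3 and 12.5 TPM with YAP5SA, against 0.151 and 0.148 TPM with YAP5SA-S94A. Trank1, whose human counterpart lies in a region linked to bipolar disorder, had 12.7 and 14.1 TPM with YAP5SA, against 0.357 and 0.291 TPM with YAP5SA-S94A. Each pair of libraries agreed closely for these genes. Lrfn5, a synaptic adhesion molecule, had 11.1 and 6.70 TPM with YAP5SA, against 0.467 and 0.371 TPM with YAP5SA-S94A. Grik2, a kainate receptor subunit, had 5.12 and 7.23 TPM with YAP5SA, against 0.395 and 0.262 TPM with YAP5SA-S94A. Phyhipl, a brain-enriched gene, had 5.71 and 5.56 TPM with YAP5SA, against 0.732 and 0.661 TPM with YAP5SA-S94A.

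Most general neuronal markers were near 0. Of 15 neuron and glia markers, 10 were under 1 TPM in all 4 libraries, with the synaptic vesicle gene Snap25 listed at 0 throughout. Of the 5 tested, 3 were called higher by limma and 0 lower, against 17.4% and 15.5% of all tested names. The list is small and was not tested against these shares. Tubb3, a tubulin of neurons and of other growing cells, had 24.3 and 18.2 TPM with YAP5SA, against 9.248 and 9.496 TPM with YAP5SA-S94A (log2 fold change 1.09 ± 0.17, limma adjusted p = 0.00337). Stmn2 and Gap43, both of growing axons, were the others, at log2 fold changes of 1.26 ± 0.28 and 0.98 ± 0.28 (limma adjusted p = 0.0138 and 0.0323). Stmn2 averaged 0.366 TPM with YAP5SA-S94A, so it entered the test only through its YAP5SA values. The Gap43 call was lost without YAP5SA replicate 1 (limma adjusted p = 0.1005) and without YAP5SA-S94A replicate 1 (limma adjusted p = 0.118). The whole list summed to 36.4 and 27.6 TPM with YAP5SA and 18.1 and 18.5 TPM with YAP5SA-S94A.

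Genes of the germ line and of cilia numbered 5. Marchf11, a ubiquitin ligase described in rat spermatids, had 31.1 and 25.8 TPM with YAP5SA, a mean of 28.5 ± 3.72 (SD, n = 2), against 0 and 0.177 TPM with YAP5SA-S94A. Dnajc5b, the testis relative of cysteine string protein, had 11.8 and 14.4 TPM with YAP5SA, against 0 and 0.228 TPM with YAP5SA-S94A. Ooep, a component of the subcortical maternal complex of mouse oocytes, had 9.06 and 9.70 TPM with YAP5SA, against 0.398 and 0.753 TPM with YAP5SA-S94A. The mean of Marchf11 stood above that of 60.3% of expressed names. Cfap52, a protein of cilia and flagella, had 7.54 and 7.15 TPM with YAP5SA, against 0.487 and 0.352 TPM with YAP5SA-S94A. Got1l1, a testis-enriched relative of aspartate aminotransferase, had 8.02 and 6.22 TPM with YAP5SA, against 0.887 and 0.305 TPM with YAP5SA-S94A. Germ cell markers themselves were near 0, and all 12 listed, including Ddx4 and Dazl, were under 1 TPM in every library.

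Muscle accounted for only 2 of the named genes. Ano5, a membrane protein of the anoctamin family mutated in human limb-girdle muscular dystrophy, had 16.3 and 16.4 TPM with YAP5SA, against 0.452 and 0.482 TPM with YAP5SA-S94A. Ankrd23, a titin-binding muscle ankyrin repeat protein, had 8.69 and 6.26 TPM with YAP5SA, against 0.510 and 0.981 TPM with YAP5SA-S94A. Its family member Ankrd1, a cardiac YAP target that is far more abundant, had 3262 and 3921 TPM with YAP5SA, against 765 and 767 TPM with YAP5SA-S94A (log2 fold change 2.22 ± 0.11, limma adjusted p = 2.87e-05). The rule fixes the gap of Ankrd23 and not that of Ankrd1. The 4 myosin heavy chains left out by name met the same thresholds, and Myh3, the embryonic skeletal chain, had 159 and 211 TPM with YAP5SA, against 0.835 and 0.856 TPM with YAP5SA-S94A.

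Skeletal muscle markers were mixed. Of 21 in the tables, 13 were under 1 TPM in all 4 libraries, and the myogenic factors Myod1, Myf5 and Pax7 were listed at 0 throughout. A further myogenic factor, Myf6, had 0.830 and 1.12 TPM with YAP5SA, against 0 and 0 TPM with YAP5SA-S94A. Its mean was too low for it to be tested. Of 6 tested, 3 were called higher and 2 lower by limma, against 17.4% and 15.5% of all tested names. Atp2a1, among those higher, averaged 0.952 TPM with YAP5SA-S94A and entered the test only through its YAP5SA values. The list was not tested against these shares. Cacna1s, the skeletal muscle calcium channel, had 56.1 and 47.3 TPM with YAP5SA, against 1.57 and 2.15 TPM with YAP5SA-S94A (log2 fold change 4.21 ± 0.18, limma adjusted p = 2.02e-05). Its YAP5SA-S94A values missed the limit of 1 TPM.

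The remaining 3 genes share no tissue. C1h11orf16, an open reading frame to which no role is given here, had 9.84 and 15.4 TPM with YAP5SA, against 0.0119 and 0.0609 TPM with YAP5SA-S94A. It overlaps Akip1 on the opposite strand, a gene at 171 and 169 TPM with YAP5SA and 72.7 and 77.9 TPM with YAP5SA-S94A. Slc16a4, of the monocarboxylate transporter family, had 8.16 and 12.5 TPM with YAP5SA, against 0.180 and 0 TPM with YAP5SA-S94A. For C1h11orf16 and Slc16a4 the second YAP5SA library was the higher. Arxes1, described in adipocytes of mice, had 10.2 and 7.55 TPM with YAP5SA, against 0.578 and 0.418 TPM with YAP5SA-S94A. Sult2b1 overlaps Lmtk3 and Phyhipl overlaps Fam13c on opposite strands, and both partners stayed between 0.471 and 1.35 TPM.

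Family relatives were examined because the rule had not chosen them. Among 757 genes sharing a letter stem with any of the 33, 348 could be tested and 70, or 20.1%, were called higher with YAP5SA by limma, against 17.4% of all names, while 75, or 21.6%, were called lower, against 15.5% of all names. The stem Slc alone joins unrelated transporters; without it 31 of 133 tested relatives, or 23.3%, were higher and 22, or 16.5%, lower. In the Ras-association family 5 of 7 tested relatives were higher, led by Rassf5, with 14.6 and 12.3 TPM with YAP5SA, against 2.31 and 2.28 TPM with YAP5SA-S94A (log2 fold change 2.13 ± 0.18, limma adjusted p = 0.00023). Both tested relatives of Nherf4 were higher as well. Glypicans split: Gpc3 and Gpc4 were higher, with log2 fold changes of 1.38 ± 0.10 and 1.44 ± 0.09 (limma adjusted p = 0.00012 and 6.51e-05), and Gpc1 was lower, at −0.93 ± 0.17 (limma adjusted p = 0.00632). Semaphorins split likewise, with 5 of 16 higher and 3 lower. Sema3c, a secreted class 3 semaphorin like Sema3e, had 256 and 299 TPM with YAP5SA, against 47.1 and 48.6 TPM with YAP5SA-S94A (log2 fold change 2.51 ± 0.11, limma adjusted p = 2.04e-05), whereas Sema7a was lower at −1.99 ± 0.16 (limma adjusted p = 0.000153). Crb2, a relative of Crb3, had 4.48 and 2.47 TPM with YAP5SA, against 0.284 and 0.230 TPM with YAP5SA-S94A (log2 fold change 1.79 ± 0.30, limma adjusted p = 0.00416). Crb2, and also Rassf9 and Sema4a in the counts above, averaged under 1 TPM with YAP5SA-S94A. Such relatives entered the test only through their YAP5SA values. Relatives of Ano5 (4 tested), Got1l1 (2), Marchf11 (7), Grik2 (1), Rims1 (1), Rtkn2 (1) and Sult2b1 (3) held 0 called higher by limma (1 higher at an unadjusted p under 0.05, Sult1a1) and 5 called lower, namely Ano10, Got1, Got2, Marchf2 and Marchf6. These stems were grouped because 0 of their tested relatives were called higher. That 0 is therefore fixed, and nothing is read from its contrast with the 5.

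Most classical YAP targets tested were also higher with YAP5SA, although 0 of the 33 belong to that list. Of 32 tested, 25 were called higher and 1 lower by limma (2 without YAP5SA replicate 2), with a median log2 fold change of 1.21, against 0.000148 over all tested names. Ccn1 and Ccn2, matricellular proteins that mark YAP activity, had log2 fold changes of 3.62 ± 0.12 and 1.95 ± 0.09 (limma adjusted p = 1.39e-05 and 2.17e-05). These targets are active in both groups, unlike the 33. Ccn2, for example, had 1021 and 968 TPM with YAP5SA, against 249 and 264 TPM with YAP5SA-S94A. Amotl2, a Hippo pathway scaffold, had 406 and 343 TPM with YAP5SA, against 38.7 and 39.3 TPM with YAP5SA-S94A (log2 fold change 3.23 ± 0.11, limma adjusted p = 1.62e-05).

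Cytokine and growth factor ligands were called higher by limma in 19 of 28 tested cases and lower in 2. Tnfsf18 and Ccl20, a T cell costimulatory ligand and a chemokine, had log2 fold changes of 4.54 ± 0.18 and 3.43 ± 0.15 (limma adjusted p = 1.92e-05 and 2.04e-05). Cardiomyocyte markers were called higher in 2 of 15 cases and lower in 8, fibroblast and matrix markers higher in 3 of 14 and lower in 2, and macrophage and myeloid markers higher in 1 of 12 and lower in 4. Endothelial markers were called higher in 2 of 8 cases and lower in 1, and smooth muscle and pericyte markers higher in 1 of 12 and lower in 2. Over all tested names 17.4% were called higher and 15.5% lower, and several of these small counts lie near those shares. No list was tested against them. With YAP5SA replicate 1 left out, 4 fibroblast markers were lower and 2 smooth muscle markers higher, and with YAP5SA replicate 2 left out, 4 cardiomyocyte and 3 smooth muscle markers were higher. With YAP5SA-S94A replicate 1 left out, 2 macrophage markers were lower, and with any library left out 1 endothelial marker was higher. The macrophage list summed to 656 and 611 TPM with YAP5SA and 941 and 949 TPM with YAP5SA-S94A. The part of these cell types in the levels of the 33 genes was not tested.

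Neighbours on the chromosome were examined because position had not entered the rule. The nearest named gene on each side of the 33 made 66 neighbours, of which 32 were under 1 TPM in all 4 libraries and 27 were tested. Of these 16, or 59.3%, were called higher with YAP5SA by limma and 2 lower, with a median log2 fold change of 0.45. Over all tested names 17.4% were called higher and 15.5% lower. Neighbours of all other tested genes were called higher in 1822 of 10728 cases, or 17.0%. For neighbours of 2194 other genes called higher the share was 563 of 2521, or 22.3%, and for those of genes higher by at least 1 on the log2 scale 249 of 1005, or 24.8%. The difference between these shares was not tested. It rests on few genes, and within 20000 bases 6 of 13 tested neighbours, or 46.2%, were called higher and 2 lower. Among the 16, Crct1, Arxes2 and Upk3bl1 entered the test only through their YAP5SA values, which raises the share.

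**Figure D4:**
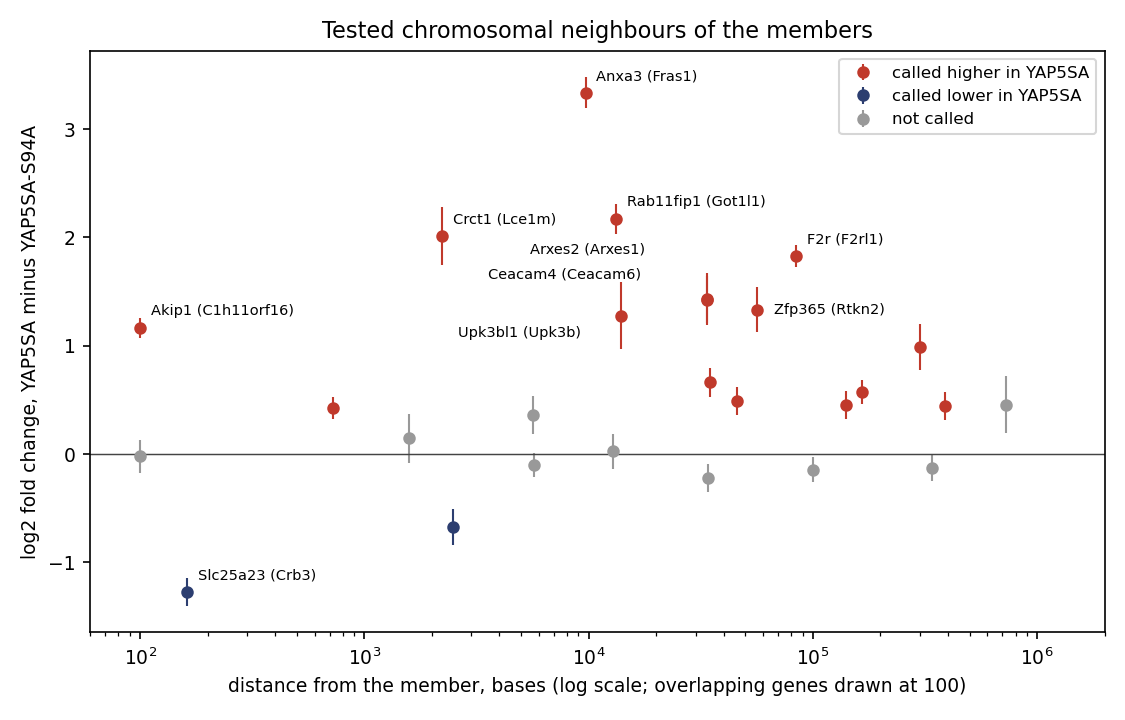
Log2 fold change (YAP5SA minus YAP5SA-S94A, on log2(TPM + 1), bars are the limma SE) of the 27 tested neighbours against their distance from the member on a log scale, with overlapping genes drawn at 100 bases. Red points are called higher, blue lower and grey not called, and the neighbour of Fras1, Anxa3, stands highest at 3.34.

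Anxa3, an annexin 9690 bases from Fras1, had 43.1 and 42.3 TPM with YAP5SA, against 3.22 and 3.44 TPM with YAP5SA-S94A (log2 fold change 3.34 ± 0.14, limma adjusted p = 2.02e-05). Rab11fip1, a Rab11 effector of recycling endosomes 13246 bases from Got1l1, had 35.6 and 32.7 TPM with YAP5SA, against 6.63 and 6.98 TPM with YAP5SA-S94A (log2 fold change 2.17 ± 0.14, limma adjusted p = 6.2e-05). Crct1, a cornified envelope gene 2221 bases from Lce1m, had 3.46 and 2.65 TPM with YAP5SA, against values listed at 0 and 0 with YAP5SA-S94A (limma adjusted p = 0.00155). Some of the called neighbours are paralogs of their member: F2r beside F2rl1, Ceacam4 beside Ceacam6, Arxes2 beside Arxes1, Upk3bl1 beside Upk3b and Gpc6 beside Gpc5. F2r, the thrombin receptor, had 97.0 and 97.4 TPM with YAP5SA, against 26.8 and 26.6 TPM with YAP5SA-S94A (log2 fold change 1.83 ± 0.10, limma adjusted p = 4.28e-05). Arxes2 and Ceacam4 had log2 fold changes of 1.43 ± 0.24 and 1.43 ± 0.22 (limma adjusted p = 0.00385 and 0.00276), and reads of such close copies may be shared. Upk3bl1, at 1.28 ± 0.31 (limma adjusted p = 0.0181), lost its call without YAP5SA-S94A replicate 2 (limma adjusted p = 0.0867). Slc25a23, which lies 162 bases from Crb3, was lower, with 40.6 and 34.7 TPM with YAP5SA, against 85.4 and 99.2 TPM with YAP5SA-S94A (log2 fold change −1.27 ± 0.13, limma adjusted p = 0.000479). Cnnm3, beside Ankrd23, was the other lower neighbour. With YAP5SA-S94A, Crct1, Arxes2 and Upk3bl1 averaged 0, 0.838 and 0.225 TPM. They reached the mean of 1 TPM needed for the test only through the YAP5SA libraries, so their calls lean on that group.

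By chromosome the genes were spread over 15 chromosomes, with 7 of 33, or 21.2%, on chromosome 2, which holds 6.64% of expressed names. The 7 are Lce1m, Lce1e, Cd2, Marchf11, Dnajc5b, Slc16a4 and F2rl1. Lce1m and Lce1e are the close pair of 1 family described above. Chromosome 2 is named because it held the most of the 33, and its share was not tested.

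For some genes the TPM value stood above what their coverage column would give. The ratio of coverage to TPM has a highest value that 2838 to 2919 entries per library share within 0.1%. In the YAP5SA libraries 14 of the 33 genes reached at least 95% of it, among them Lce1m, Cd2 and Nog. Gpc5 reached 7.34% and 7.39%, Dnajc5b 7.91% and 7.91%, and Phyhipl 8.499% and 8.499%. Crb3, at 25.2% and 28.0%, and Rims1, at 34.6% and 34.7%, lay between. In reads per base, Gpc5 had a coverage of 1.79 and 1.73 with YAP5SA, against 0.0570 and 0.146 with YAP5SA-S94A, while Cd2 had 61.4 and 45.7 with YAP5SA and 0 and 0 with YAP5SA-S94A. When TPM was replaced by coverage divided by that highest ratio, 29 genes met the rule and 25 of the 33 were among them. The 8 that did not were Crb3, Dnajc5b, Got1l1, Gpc5, Phyhipl, Rtkn2, Sema3e and Sult2b1. The cause of the unequal ratios was not tested.

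**Figure D5:**
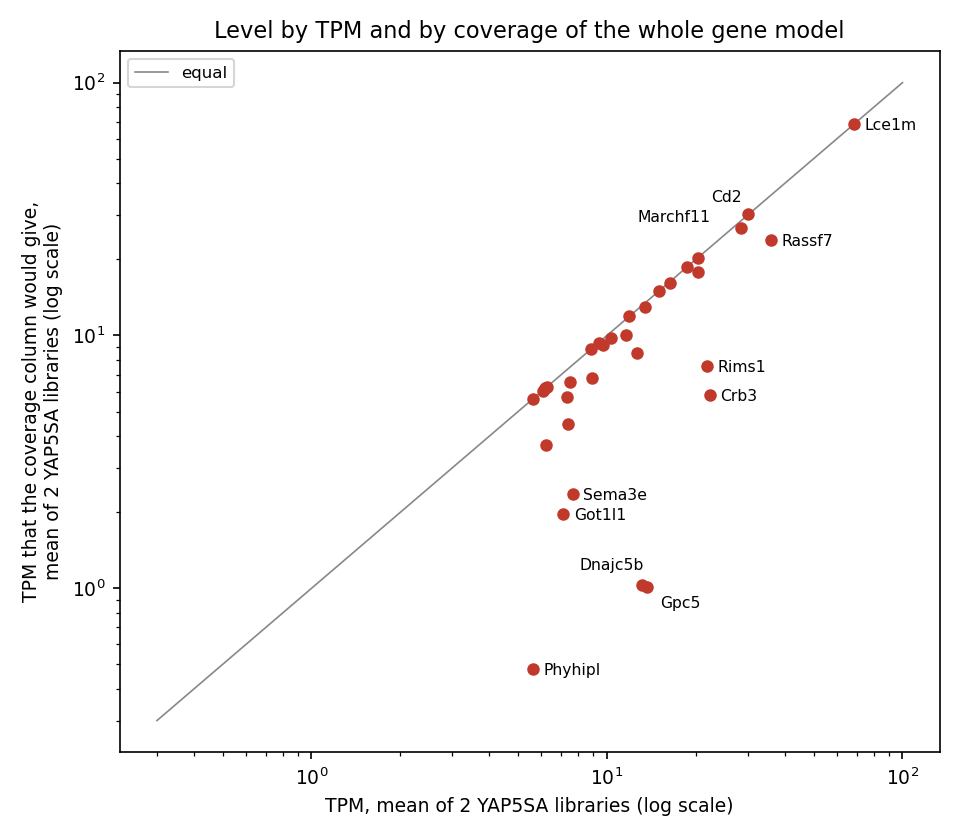
Mean level of the 33 genes in the 2 YAP5SA libraries by TPM (horizontal, log scale) and by coverage divided by the highest ratio of coverage to TPM (vertical, log scale), with a line of equality. Lce1m and Cd2 lie on the line, and Gpc5, Dnajc5b and Phyhipl lie furthest below it.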

How the data were processed

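RNA was sequenced from poly(A) RNA with directional libraries, per the labels' protocols. Per the submitters' processing notes the rat build was rn7, and the tools included StringTie 2.2.1, HISAT2 2.2.1 and fastp, without settings; the annotation and the use of strand in counting are not given in the sources used here. The authors deposited 1 table per library with TPM, FPKM and coverage. TPM, which the authors scaled to equal sums, was the unit used. The deposited FPKM values were a fixed multiple of TPM within a library and served as an alternative. The Coverage column, per the file headers a per-base signal and not scaled for depth, gave the aligned gigabases.

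TPM was summed over entries of the same name (517 names stood on several entries). The rule for the 33 genes used these sums. Genes with a mean of at least 1 TPM (13420) entered a limma fit (version 3.58.1, R 4.3.3) of log2(TPM + 1) without covariates, whose prior variance followed an intensity trend and had 5.09 degrees of freedom beside 2 residual ones, with p-values adjusted over all of them by Benjamini-Hochberg and called under 0.05. The contrast was YAP5SA minus YAP5SA-S94A. For a single value an exact permutation test of 2 against 2 libraries cannot go below p = 0.333, so none was used. On simulated data for this contrast (13420 genes) the fit called 88 of 102 genes changed by 1 on the log2 scale and 98 of 98 changed by 2, and 18 of its 204 calls were of unchanged genes. The simulated noise was independent and normal, with the SD that the fit itself had estimated. Far fewer genes were changed than the 4420 called in the real data, so the simulation checks the fit only under its own assumptions. Other steps used matplotlib 3.10.9, numpy 2.4.6, pandas 2.3.3 and Python 3.11.15.

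The 33 genes, the 14 gene lists and the tests were chosen with earlier results of these data known. Relatives share at least 3 letters before the first digit of a member's name, and neighbours are the nearest named gene on each side in the deposited coordinates. Among genes outside the 33, the rule for naming took up to 3 called genes with the smallest p per list, or the 2 most abundant where none was called, and called relatives and neighbours with an absolute log2 fold change of at least 1, with the most abundant relative. Genes named outside this rule, such as markers at 0 and members of small counts, were chosen after their values were seen. Coordinates of genes are those of the deposited tables, and promoter windows come from RefSeq on GRCr8. Replicate numbers were taken from the titles, and nothing says that they pair the libraries; the names of the deposited tables carry other library numbers, which were not used. Alternatives covered the pseudocount, filter, unit, scaling, variance model, thresholds, replicate block and each library left out.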

Additional observations from a re-analysis of the deposited data

How the results depend on the processing

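With 2 libraries per group, and levels that chose the genes, the size of the set moves with its thresholds. With an upper limit of 0.5 or 2 TPM the set held 21 or 69 genes, and with a lower limit of 3 or 10 TPM it held 62 or 15; leaving out each library gave 39 to 43 genes. FPKM at the same thresholds gave 29, of which 12 were among the 33. A gene's FPKM was smaller than its TPM in every library, so both limits stood higher in TPM. The smaller overlap thus reflects other thresholds as well as another unit. With the YAP forms exchanged the counts were 3 and 28, then 24 and 3, and 10 to 20 with each library left out. The share of promoter windows with the TEAD core was 7.14% at 10 TPM. Genes called higher numbered 1717 to 2639 and genes called lower 1299 to 2891 with a library left out, neighbours called higher 10 to 14 and relatives 50 to 77. Chosen after seeing the data were relatives without the stem Slc (31 called higher), neighbours within 20000 bases (6) and coverage-scaled TPM (29 genes). With the replicate number as a block, 2726 genes were called higher and 2593 lower, and 16 neighbours higher; T and NK markers called lower were 2, smooth muscle markers called higher 2 and neuron markers called lower 1. Same-numbered libraries deviated with a correlation of 0.101 in 2 pairs, too few to tell whether the numbers pair them. No filter on low values gave 2 T and NK markers higher, 2 macrophage markers lower, 1 smooth muscle marker lower, 1 cardiomyocyte marker higher and 1 epithelial and 1 neuron marker lower. No intensity trend gave 2 T and NK markers and 1 smooth muscle marker lower. Quantile normalization gave 2 T and NK markers lower, 1 endothelial marker higher and 1 neuron marker lower. FPKM gave 1 endothelial and 1 neuron marker higher, and a pseudocount of 0.1 gave 1 endothelial marker higher. With a library left out, lists ranged as follows: YAP/TEAD targets lower 1 to 2, T and NK lower 0 to 1, macrophage lower 2 to 5, endothelial higher 1 to 1, smooth muscle higher 1 to 3, fibroblast lower 2 to 4, epicardial lower 0 to 1, cardiomyocyte higher 2 to 4 and neuron lower 0 to 1. Among relatives that were not called, the log2 fold change turned sign with a library left out: Grik5 ranged over -0.0045 to 0.418, Lrfn4 over -0.6047 to 0.1781, Rtkn over -0.0862 to 0.2528 (also -0.0255) and Sult6b2 over -0.3226 to 0.0714. The cause of these shifts was not tested. Counts per gene were not used here, so levels under 1 TPM have no counting interval.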
